A study of Mus musculus with 12 samples.

Results

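The expression of 39 genes of sphingolipid metabolism was examined in mouse brain RNA-seq libraries. The 39 genes were chosen by name, as the enzymes, subunits and inhibitors that make, convert and break down ceramide and its products, and all 39 were found among the 55385 genes of the table. They fall into 12 roles, and 38 of them reached a mean of 0.1 FPKM over the libraries and were tested together with 21393 genes in all. FPKM counts sequenced fragments relative to the length of the transcript and to the mapped fragments of the library, so that levels of different genes may be set side by side.

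The 12 libraries came from the brains of wild-type male C57/BL6J mice, 1 library per mouse and 3 mice per group, and poly(A) RNA was sequenced. The C_W group was given water and no stress, the C_O group krill oil and no stress, the MS_W group chronic unpredictable mild stress (CUMS) with water, and the MS_O group CUMS with krill oil. The mice were bought at 8 weeks of age, krill oil was given at 200 mg per kg per day for 5 weeks, and CUMS lasted 4 weeks. CUMS is a schedule of changing mild stressors that is used as a model of depression in rodents, and krill oil is a marine oil rich in omega-3 fatty acids bound to phospholipids, for which water, and not another oil, was the control. A library is named below by its group and mouse number, as in C_O72.

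Ceramide is the hub of sphingolipid metabolism. It is built from serine and palmitoyl-CoA in the endoplasmic reticulum, and it is converted to sphingomyelin, to glucosylceramide and the gangliosides of neurons, or to galactosylceramide and sulfatide, the glycolipids that are abundant in myelin, the membrane sheath that oligodendrocytes wrap around axons. Breakdown runs back through ceramide to sphingosine, which is phosphorylated to sphingosine 1-phosphate, a signalling lipid with receptors of its own, or reused.

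The sum of estimated counts ranged from 50912906 to 75678721 per library. C_O72 and MS_W95 differed from the remaining libraries, with a Pearson's r of log2(FPKM + 1) across genes of 0.970 with each other, while r was at least 0.959 among the other 10 and at most 0.937 between these and C_O72 or MS_W95. Summed over a list of 9 genes of hindbrain and spinal cord, FPKM was 82.2 in C_O72 and 30.9 in MS_W95 and between 0.0188 and 0.0977 in the other 10 libraries, so that the defining genes of the hindbrain were at or near 0 in 10 of 12 libraries of a tissue labelled brain. The summed FPKM of 5 cerebellar genes was 186 and 574 in these libraries against 25.4 to 42.9, and that of 12 oligodendrocyte genes was 1616 and 895 against 352 to 686. For 6 astrocyte genes it was 852 and 828 against 296 to 399, and for 5 choroid plexus genes 4818 and 1804 against 4.99 to 839. For 6 microglial genes it was 71.0 and 45.6 against 63.1 to 96.5. The summed FPKM of 5 genes of cortical projection neurons was 31.5 and 44.7 against 127 to 376. MS_W31 and MS_W75 also stood apart among the 10. The summed FPKM of 6 hypothalamic genes was 97.1 and 94.8 in them and 1.08 to 16.1 in all other libraries. Their sums of the cortical genes were 136 and 127, against 222 to 376 in the rest of the 10. Without MS_W95, these mice alone make up the MS_W group. The cause of these differences was not tested, and for each comparison the counts by p, the share of members above 0 and the leading fold changes are also given without C_O72 and MS_W95. In bulk tissue, fewer cells of a type and less RNA per cell cannot be told apart.

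The promoter sequences of 3 members are shown first. Ugt8a and Gal3st1 followed the oligodendrocyte marker genes most closely among the members over the 10 libraries without C_O72 and MS_W95. Sgpp2 had the largest fold change on the log2(FPKM + 1) scale in 3 of 5 comparisons over all 12 libraries. Ugt8a makes galactosylceramide, Gal3st1 sulfates it to sulfatide, and Sgpp2 removes the phosphate from sphingosine 1-phosphate. RefSeq promoters of the GRCm38.p6 build matched 37 of the 39 members (Smpd3 and Asah1 did not match), and the 250 bases before the annotated start are printed from 5′ to 3′ on the strand of the gene. Capitals mark matches, on either strand, to the letters GGGCGG of a GC box, CCAAT of the box of that name, TATAAA of a TATA box, CACGTG of an E-box or ACAAAG of a SOX core, where neighbouring matches of 1 motif may share letters. The Ugt8a promoter lies on the minus strand at chr3:125938653-125938902, that of Gal3st1 on the plus strand at chr11:3983386-3983635, at 1 of 3 listed starts, and that of Sgpp2 on the plus strand at chr1:78310096-78310345.
Ugt8a: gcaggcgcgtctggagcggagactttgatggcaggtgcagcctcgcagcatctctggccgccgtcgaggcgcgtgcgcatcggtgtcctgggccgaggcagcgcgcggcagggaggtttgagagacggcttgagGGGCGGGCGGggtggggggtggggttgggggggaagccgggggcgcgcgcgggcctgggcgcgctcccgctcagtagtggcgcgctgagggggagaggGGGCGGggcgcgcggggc
Gal3st1: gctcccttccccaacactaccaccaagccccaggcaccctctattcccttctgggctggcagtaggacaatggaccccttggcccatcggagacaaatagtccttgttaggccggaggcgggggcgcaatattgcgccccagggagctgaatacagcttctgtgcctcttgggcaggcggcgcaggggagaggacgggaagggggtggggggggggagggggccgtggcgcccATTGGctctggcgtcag
Sgpp2: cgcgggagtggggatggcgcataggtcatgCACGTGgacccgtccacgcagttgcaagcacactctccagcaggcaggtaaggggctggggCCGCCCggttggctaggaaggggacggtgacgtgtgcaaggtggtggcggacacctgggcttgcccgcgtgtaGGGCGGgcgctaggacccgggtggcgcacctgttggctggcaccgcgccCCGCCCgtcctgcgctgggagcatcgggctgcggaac
The Ugt8a promoter held GC boxes and none of the other letters searched, that of Gal3st1 a CCAAT box on the opposite strand, and that of Sgpp2 an E-box and GC boxes on both strands. Of the 37 member promoters, 67.6% held a GC box, against 32.7% of all 32851 promoters in the table. For a member, only the start nearest to that of its gene was used. The 32851 promoters include every listed start of a gene, whether expressed in these libraries or not, so the sets compared here and below are unlike. The median GC content was 63.2% for the members and 52.4% for all promoters. A CCAAT box was held by 29.7% of member promoters and 33.8% of all, a TATA box by 2.70% and 12.4%, an E-box by 16.2% and 6.02%, and a SOX core by 10.8% and 16.5%. These matches describe letters in a fixed window and no binding was measured.

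Serine palmitoyltransferase (SPT), the first and rate-limiting enzyme, was represented by Sptlc1 and the catalytic subunit Sptlc2, by the alternative catalytic subunit Sptlc3, and by the small activating subunits Sptssa and Sptssb. Sptssa was the most abundant of them. Its FPKM was 11.6, 7.13 and 7.57 in C_W1, C_W64 and C_W70, 8.82, 10.01 and 15.3 in C_O15, C_O30 and C_O72, 9.33, 11.2 and 11.4 in MS_W31, MS_W75 and MS_W95, and 11.3, 10.4 and 11.2 in MS_O13, MS_O46 and MS_O78. C_O72 was the highest library and the 4 groups overlapped. Sptlc1 ranged from 7.56 to 9.07 FPKM over the 12 libraries and Sptlc2 from 3.89 to 6.06 FPKM, with its highest value in C_O72. Sptlc3 was listed at 0 in 5 libraries and reached at most 0.0766 FPKM, and it was the 1 member left out of the tests.

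Sptssb directs SPT towards a longer acyl-CoA substrate. Its FPKM was 1.81, 1.09 and 1.29 in the C_W group, 1.83, 1.72 and 6.63 in the C_O group, 1.08, 1.34 and 5.02 in the MS_W group, and 1.16, 0.846 and 1.01 in the MS_O group, in the same order of mice. The high values were those of C_O72 and MS_W95, and the other 10 libraries lay at or below 1.83 FPKM. Sptssb thereby made up 18.3% and 16.3% of the summed FPKM of SPT subunits in these libraries and 3.59% to 7.92% in the other 10.

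The ORMDL proteins bind SPT and hold it back when ceramide is plentiful. Ormdl3 was the main transcript, with 87.4% to 90.9% of the summed FPKM of the family in the 10 libraries. Its FPKM was 27.8, 26.0 and 23.6 in the C_W group, 28.4, 26.5 and 29.5 in the C_O group, 31.5, 29.1 and 35.3 in the MS_W group, and 27.5, 29.3 and 30.6 in the MS_O group. Every MS_W library was above every C_W library. Ormdl1 was measured at 1.59, 1.52 and 1.42 FPKM in the C_W group, 1.35, 1.82 and 2.39 FPKM in the C_O group, 2.15, 1.99 and 3.10 FPKM in the MS_W group, and 1.49, 2.20 and 1.91 FPKM in the MS_O group. The C_W and MS_W groups did not overlap, and MS_W95 was the highest library. Ormdl2, whose exons overlap Dnajc14 on the other strand, ranged from 0.934 to 2.02 FPKM in the 10 libraries and was 3.74 FPKM in C_O72 and 2.33 FPKM in MS_W95. Kdsr, the reductase of the next step, ranged from 3.32 to 4.36 FPKM.

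Ceramide synthases attach acyl chains of different length to the sphingoid base. Cers1, the synthase of C18 ceramide in neurons, was listed at 20.9, 32.8 and 16.2 FPKM in the C_W group, 32.1, 19.5 and 11.6 FPKM in the C_O group, 36.4, 37.6 and 10.04 FPKM in the MS_W group, and 33.3, 17.0 and 20.7 FPKM in the MS_O group. These values cannot be read as levels of Cers1 alone. Cers1 (chromosome 8, 70315775 to 70331592, mm10) shares exons on the same strand with Gdf1, which encodes a growth factor and is transcribed in one message with Cers1. In 5 libraries, C_W64, C_O15, MS_W31, MS_W75 and MS_O13, Gdf1 was listed at 0.0660 to 0.156 FPKM and Cers1 at 32.1 to 37.6 FPKM. In the other 7 libraries Gdf1 was at 26.5 to 45.6 FPKM and Cers1 at 10.04 to 20.9 FPKM. The sum of the estimated counts of both genes was 115 to 144 per 1000000 estimated counts of the library in the 10 libraries, and 82.9 and 76.3 per 1000000 in C_O72 and MS_W95. The estimated counts of the locus were thus divided between the genes in some libraries and listed almost wholly under Cers1 in others, and both kinds of library were found in every group.

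**Figure D1:**
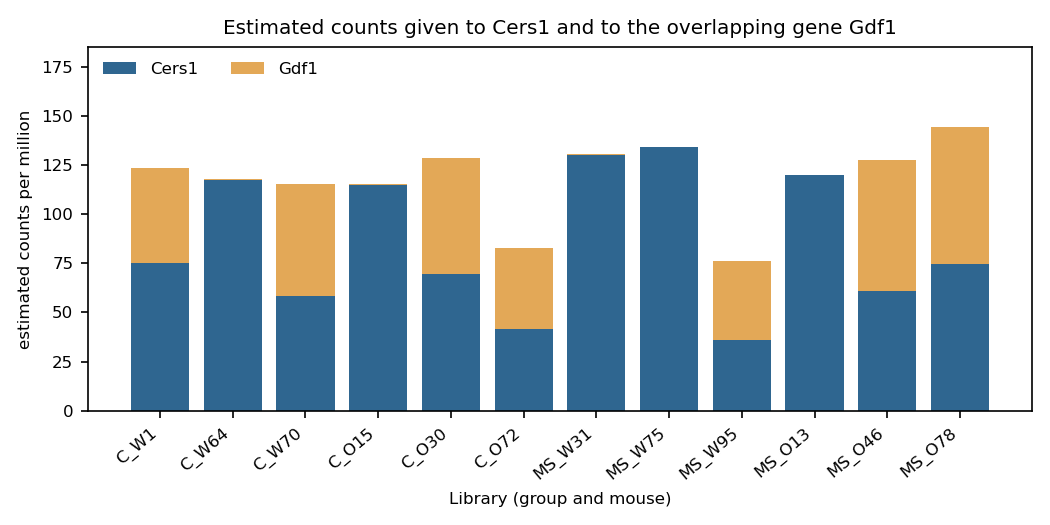
Estimated counts per 1000000 (y axis) of Cers1 (blue) and Gdf1 (orange), stacked, in each of the 12 libraries (x axis, named by group and mouse). The orange part is near 0 in 5 libraries, where the blue part is 115 to 134 per 1000000, and the stacks of C_O72 and MS_W95 are the lowest.

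Cers2, the synthase of very long chain ceramides of myelin, ranged from 10.9 to 16.6 FPKM in the 10 libraries. It was 33.2 FPKM in C_O72 and 21.4 FPKM in MS_W95, above every other library. Cers2 made up 53.2% and 41.3% of the summed ceramide synthase FPKM there and 16.9% to 29.6% elsewhere, although these shares also move with the listed Cers1 level. Its exons overlap Setdb1 on the other strand. Cers5 ranged from 9.84 to 12.3 FPKM over the 12 libraries and Cers4 from 2.71 to 3.77 FPKM. Cers6, which makes C16 ceramide, ranged from 4.98 to 8.03 FPKM in the 10 libraries and was lowest in C_O72, at 2.83 FPKM.

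Degs1, which inserts the double bond that turns dihydroceramide into ceramide, was measured at 19.5, 17.8 and 18.2 FPKM in the C_W group, 19.2, 17.6 and 35.2 FPKM in the C_O group, 21.5, 21.6 and 47.8 FPKM in the MS_W group, and 34.2, 18.8 and 17.7 FPKM in the MS_O group. The libraries C_O72, MS_W95 and MS_O13 lay between 34.2 and 47.8 FPKM and the other 9 between 17.6 and 21.6 FPKM. MS_O13 was not among the libraries with hindbrain signal. Degs2, which can also hydroxylate the base and whose exons overlap Evl on the other strand, ranged from 0.572 to 1.64 FPKM.

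Sphingomyelin is made by Sgms1 in the Golgi apparatus and by Sgms2 at the plasma membrane, and Samd8 is a related enzyme that makes ceramide phosphoethanolamine. Samd8 was the most abundant of them, at 8.98, 8.82 and 8.86 FPKM in the C_W group, 8.32, 8.79 and 5.54 FPKM in the C_O group, 8.50, 9.24 and 9.02 FPKM in the MS_W group, and 8.85, 8.04 and 8.46 FPKM in the MS_O group. C_O72 was low and the other 11 libraries lay close together. Sgms1 ranged from 2.17 to 4.16 FPKM, with its highest value in MS_W95. Sgms2 ranged from 0.244 to 0.642 FPKM in the 10 libraries and was 2.05 FPKM in C_O72 and 1.35 FPKM in MS_W95.

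Sphingomyelinases cut sphingomyelin back to ceramide. Smpd1, the acid sphingomyelinase of lysosomes, was the most abundant member of all and the least variable, with a coefficient of variation of 3.29% over the 12 libraries. Its FPKM was 34.1, 32.3 and 32.4 in the C_W group, 32.7, 33.3 and 35.4 in the C_O group, 31.8, 31.9 and 33.4 in the MS_W group, and 33.7, 31.9 and 33.2 in the MS_O group. All groups overlapped. Smpd4, another neutral sphingomyelinase, ranged from 5.70 to 7.89 FPKM in the 10 libraries and was 4.06 and 5.68 FPKM in C_O72 and MS_W95.

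Smpd3 encodes the neutral sphingomyelinase 2 of neurons. Its FPKM was 13.2, 12.6 and 15.1 in the C_W group, 17.0, 19.2 and 3.57 in the C_O group, 18.4, 22.8 and 3.99 in the MS_W group, and 20.4, 12.2 and 11.4 in the MS_O group. C_O72 and MS_W95 were the low libraries and were separated from the next by a gap of 1.31 on the log2(FPKM + 1) scale. Smpd2, a neutral sphingomyelinase with low expression, was measured at 1.73, 1.94 and 1.67 FPKM in the C_W group, 2.15, 1.73 and 3.14 FPKM in the C_O group, 2.60, 2.63 and 3.12 FPKM in the MS_W group, and 2.09, 3.31 and 3.22 FPKM in the MS_O group. The MS_W and MS_O libraries were all above the C_W libraries, and C_O72, MS_O46 and MS_O78 exceeded every MS_W library. The exons of Smpd2 overlap Mical1, and those of Smpd3 overlap Prmt7, on the other strand. Mical1 was at 1.47, 1.36 and 1.45 FPKM in the C_W group and 1.46, 1.56 and 1.40 FPKM in the C_O group. In the MS_W group it was at 2.05, 1.71 and 1.40 FPKM, and in the MS_O group at 1.44, 2.13 and 1.87 FPKM. The part of Mical1 in the Smpd2 values was not tested.

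Among the ceramidases, which release sphingosine, the lysosomal Asah1 was the most abundant. Its FPKM was 14.4, 14.7 and 17.1 in the C_W group, 14.4, 14.4 and 18.5 in the C_O group, 15.1, 15.5 and 19.4 in the MS_W group, and 14.8, 14.6 and 13.5 in the MS_O group. The MS_O libraries were all below the MS_W libraries. The neutral ceramidase Asah2 ranged from 0.522 to 1.36 FPKM in the 10 libraries and was 3.94 FPKM in C_O72 and 2.35 FPKM in MS_W95. The alkaline ceramidases Acer2 and Acer3 ranged from 1.01 to 1.98 FPKM and from 1.07 to 1.56 FPKM.

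Ceramide kinase, Cerk, was the most abundant kinase. Its FPKM was 18.1, 17.5 and 17.5 in the C_W group, 17.9, 15.5 and 38.1 in the C_O group, 17.6, 14.4 and 50.3 in the MS_W group, and 14.9, 22.7 and 22.2 in the MS_O group. C_O72 and MS_W95 were the highest libraries. Of the kinases that make sphingosine 1-phosphate, Sphk2 ranged from 4.85 to 9.64 FPKM, with exons that overlap Rpl18 and Dbp on the other strand, and Sphk1 ranged from 0.441 to 1.06 FPKM in 11 libraries and was 2.09 FPKM in MS_O78.

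Sphingosine 1-phosphate is removed by the phosphatases Sgpp1 and Sgpp2 and, irreversibly, by the lyase Sgpl1. Sgpp2 (chromosome 1, 78310345 to 78420289) was measured at 6.99, 6.09 and 6.95 FPKM in the C_W group, 9.35, 4.99 and 27.1 FPKM in the C_O group, 4.61, 5.79 and 25.1 FPKM in the MS_W group, and 5.65, 3.78 and 3.26 FPKM in the MS_O group. The values of C_O72 and MS_W95 were 4.73 and 4.39 times the median of the other 10 libraries, with no library between 9.35 and 25.1 FPKM. Farsb overlaps it on the other strand and ranged from 15.0 to 20.7 FPKM. Sgpp1 ranged from 6.64 to 8.27 FPKM in the 10 libraries and was 10.4 FPKM in C_O72 and 11.5 FPKM in MS_W95, and Sgpl1 ranged from 5.22 to 8.15 FPKM over the 12 libraries.

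Glycosphingolipid synthesis starts with Ugcg, which makes glucosylceramide, or with Ugt8a. Ugcg was the more abundant, at 14.7, 15.5 and 14.0 FPKM in the C_W group, 14.4, 14.1 and 12.3 FPKM in the C_O group, 12.8, 13.9 and 14.9 FPKM in the MS_W group, and 14.2, 14.8 and 13.9 FPKM in the MS_O group. All groups overlapped. Ugt8a (chromosome 3, 125865271 to 125938619) was measured at 6.81, 5.08 and 8.54 FPKM in the C_W group, 7.12, 4.02 and 22.5 FPKM in the C_O group, 7.25, 7.62 and 14.4 FPKM in the MS_W group, and 6.45, 6.54 and 5.35 FPKM in the MS_O group. Gal3st1 (chromosome 11, 3983636 to 3999326) was measured at 5.03, 4.60 and 5.63 FPKM in the C_W group, 4.33, 3.52 and 11.2 FPKM in the C_O group, 4.70, 4.71 and 5.90 FPKM in the MS_W group, and 4.23, 4.53 and 4.13 FPKM in the MS_O group. Both were highest in C_O72 and next in MS_W95, and for both the MS_O libraries lay below every MS_W library.

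Breakdown of glycosphingolipids was represented by Galc, the lysosomal galactosylceramidase, by Arsa, which removes the sulfate of sulfatide, and by Gba2, a glucosylceramidase outside the lysosome. Gba2 was the most abundant, at 16.2, 16.8 and 16.3 FPKM in the C_W group, 16.6, 16.2 and 15.4 FPKM in the C_O group, 15.5, 18.2 and 13.02 FPKM in the MS_W group, and 16.7, 16.6 and 14.7 FPKM in the MS_O group. The groups overlapped and MS_W95 was lowest. The exons of Gba2 overlap Creb3 and Rgp1 on the other strand. Galc ranged from 1.95 to 3.07 FPKM and Arsa from 6.29 to 7.86 FPKM.

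**Figure D2:**
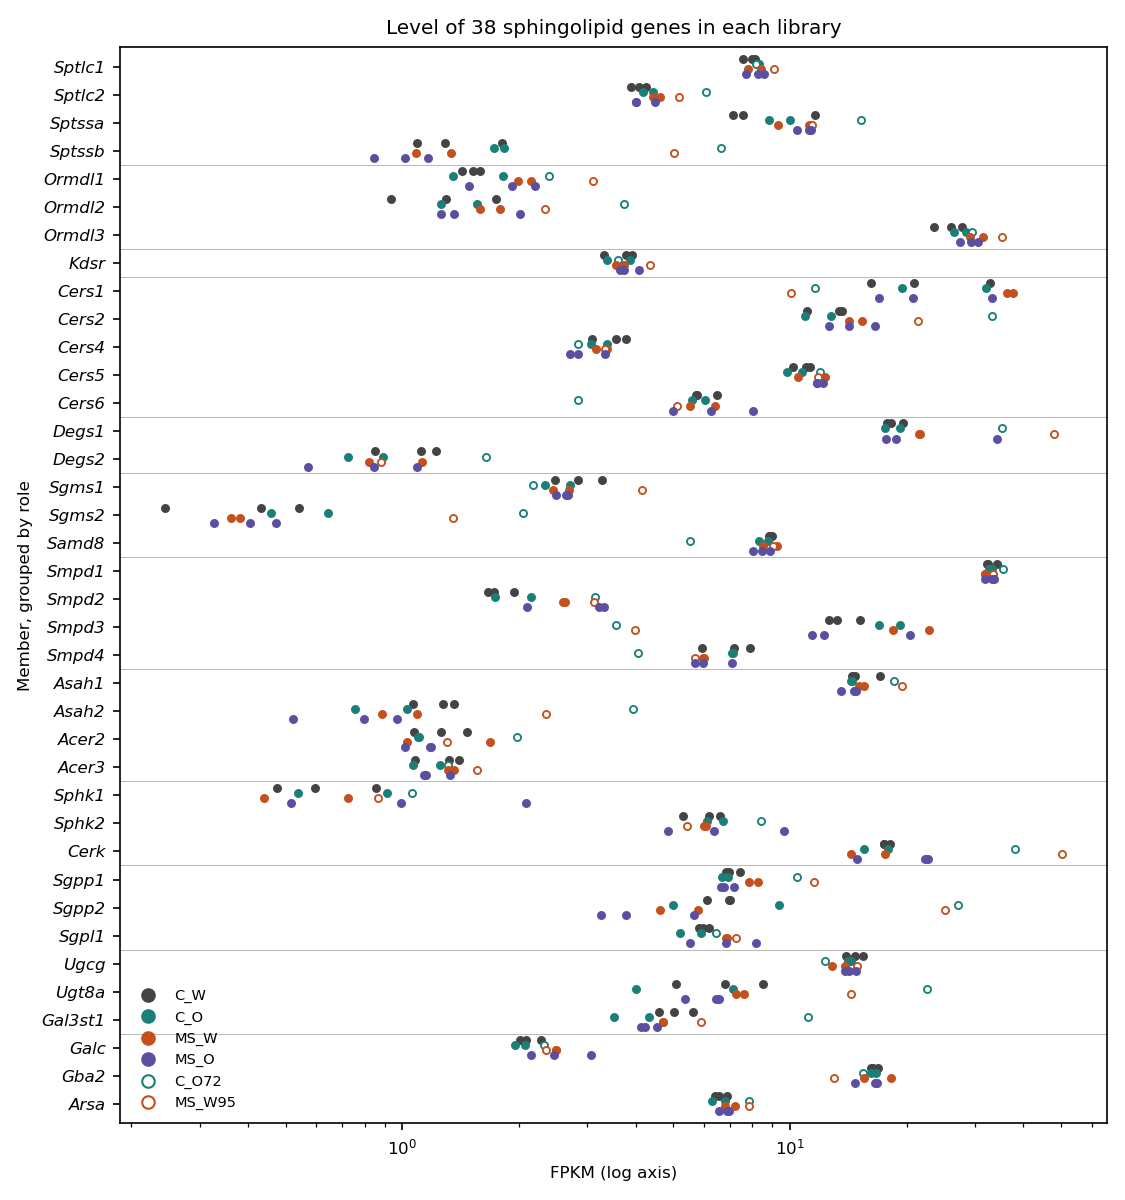
FPKM on a log axis (x) of the 38 tested members (y, grouped by role between grey lines) in the 12 libraries, coloured by group, with C_O72 and MS_W95 as open points. Most members sit in a narrow band over the filled points, and the open points lie to the right of it for Sptssb, Sgms2, Asah2, Cerk, Sgpp2 and Ugt8a and to the left for Smpd3 and Cers1.

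The members differed more between C_O72 or MS_W95 and the other libraries than among the 10. Of 38 tested members, 15 were higher in both of them than in any of the other 10 libraries, which was 39.5% of the members against 16.3% of all tested genes. They were Sptlc2, Sptssb, Ormdl1, Ormdl2, Cers2, Degs1, Sgms2, Asah1, Asah2, Cerk, Sgpp1, Sgpp2, Ugt8a, Gal3st1 and Arsa, and they are spread over synthesis, conversion and breakdown. Cers1, Smpd3 and Smpd4, 7.89% of the members against 11.7% of all tested genes, were lower in both than in the other 10. A mean of at least 1 FPKM was reached by 35 of the 38 tested members, beside 13621 of 21393 tested genes. The shares outside the range of the 10 libraries were not counted at a matched level. The median coefficient of variation of the tested members was 20.6% over 12 libraries and 13.6% over 10. For members with a mean of at least 1 FPKM it was 20.4% and 13.1%, beside 20.4% and 15.2% for all genes at that level. These libraries belong to different groups and were not chosen by their labels, so that no test of them was made.

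**Figure D3:**
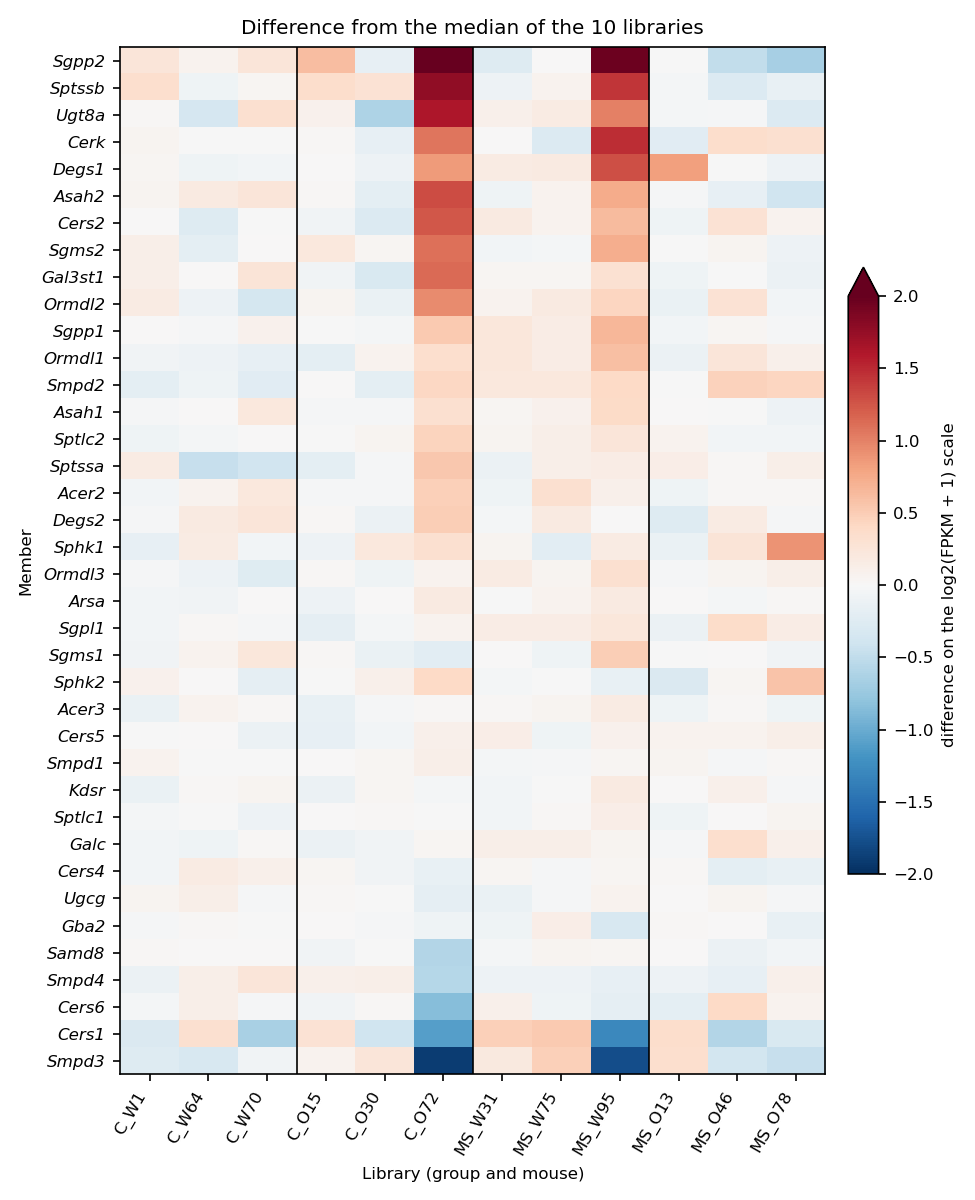
Difference of each library (x axis) from the median of the 10 libraries without C_O72 and MS_W95, on the log2(FPKM + 1) scale (colour), for the 38 tested members (y axis, ordered by the mean of these libraries). The columns of C_O72 and MS_W95 hold the strongest colours, from 2.06 and 1.96 for Sgpp2 to -1.90 and -1.77 for Smpd3, and MS_O13 stands out for Degs1.

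An oligodendrocyte score was formed as the mean log2(FPKM + 1) of 12 oligodendrocyte genes that include none of the members. The members were compared with this score, which is a level of RNA and not a count of cells, over the 10 libraries. Ugt8a had the highest coefficient among the members, with a Pearson's r of 0.956 (permutation p = 0.000120, adjusted p = 0.143 over all tested genes) and a Spearman's rho of 0.818 (permutation p = 0.00618, adjusted p = 0.973). Gal3st1 followed with an r of 0.834 (permutation p = 0.00187, adjusted p = 0.690) and a rho of 0.830 (permutation p = 0.00464, adjusted p = 0.973). Without C_O30 and MS_O78, the libraries farthest from the median score, r was 0.901 for Ugt8a and 0.6001 for Gal3st1. Asah1 then lay above Gal3st1, with an r of 0.620. Neither Ugt8a nor Gal3st1 passed the adjustment, and 0 of 38 members and 0 of 21393 genes did. The permutations give no p below 1e-05, and the smallest adjusted p of any gene was 0.0535. The count of 0 among all genes is therefore partly set by this floor, and the 12 genes of the score were among those tested. At an unadjusted permutation p under 0.05, 4 members were counted beside 4.86% of all tested genes. Beside Ugt8a and Gal3st1 these were Asah1, with an r of 0.663 (permutation p = 0.0352), and Sphk1, with an r of -0.682 (permutation p = 0.0251). The median r was 0.0935 for the members and 0.00863 for all tested genes. Over all 12 libraries, 9 members (23.7%) passed the adjusted threshold, beside 8.05% of all tested genes. The libraries are of 4 groups and share tissue differences that move many genes together.

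**Figure D4:**
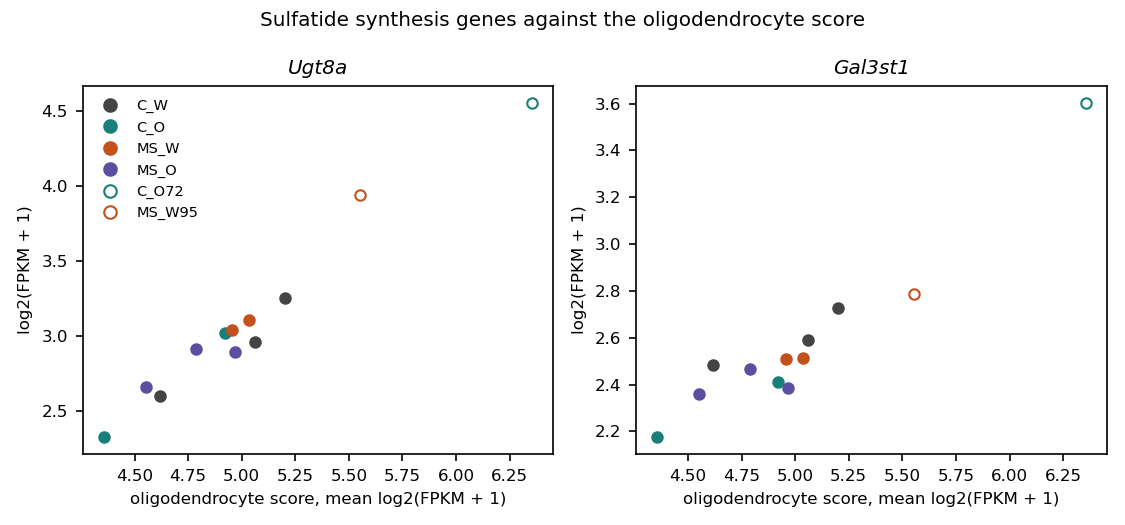
log2(FPKM + 1) of Ugt8a (left) and Gal3st1 (right) on the y axes against the oligodendrocyte score, the mean log2(FPKM + 1) of 12 genes, on the x axes, with 1 point per library coloured by group and C_O72 and MS_W95 open. The filled points of the 10 libraries rise with the score between 4.36 and 5.20, and the open points extend to higher scores and levels.

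The effect of CUMS in mice on water was read from the MS_W and C_W groups. Members with a higher level in all 3 MS_W libraries than in any C_W library were found in several roles, but 0 of 38 passed an adjusted p of 0.05 by limma, edgeR or DESeq2, beside 0.00467% of all tested genes by limma and by edgeR, which is 1 gene, and 1.94% by DESeq2. At an unadjusted p under 0.05, 3 members were counted by limma, 3 by edgeR and 3 by DESeq2, each 7.89% of the members, beside 10.5%, 9.37% and 11.7% of all tested genes in this order. The 3 members counted by limma were all higher in the MS_W group, beside 6.71% of all tested genes. They were Ormdl3, with a log2 fold change of 0.30 (SE 0.101, limma adjusted p = 0.358), Ormdl1, with 0.43 (SE 0.168, limma adjusted p = 0.425), and Smpd2, with 0.44 (SE 0.174, limma adjusted p = 0.427). Fold changes are on the log2(FPKM + 1) scale, which understates the change of genes with low levels, and the ratio of mean FPKM was 1.24 for Ormdl3, 1.60 for Ormdl1 and 1.57 for Smpd2. The mean FPKM of Ormdl3 was 32.0 ± 3.10 in the MS_W group and 25.8 ± 2.12 in the C_W group (SD, n = 3). That of Ormdl1 was 2.41 ± 0.600 against 1.51 ± 0.0830, and that of Smpd2 was 2.78 ± 0.294 against 1.78 ± 0.144. Without C_O72 and MS_W95 the log2 fold changes were 0.23, 0.29 and 0.38 in this order. In that fit, Ormdl3, Smpd2 and Smpd3 had an unadjusted limma p under 0.05, beside 15.4% of all tested genes. The count of members at an unadjusted p under 0.05 fell to 0 when either C_W70 or MS_W95 alone was left out and was 5 without C_O72. The share of all tested genes was not counted in these fits, so the counts are not read as a result about the members.

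The MS_W and C_W groups did not overlap for 9 members, all higher in MS_W, which was 23.7% of the members against 16.3% of all tested genes that were higher without overlap and 24.6% without overlap in either direction. Beside Ormdl3, Ormdl1 and Smpd2 these were Sgpp1, Degs1, Sgpl1, Sptlc2, Galc and Cers2. Degs1 had the largest log2 fold change of any member, 0.58 (SE 0.356, limma adjusted p = 0.570), and 0.21 without C_O72 and MS_W95. The median log2 fold change of the 38 members was 0.10 and that of all tested genes 0.06, and 29 members (76.3%) lay above 0 against 62.1% of all tested genes. In the 10 libraries the medians were 0.03 and 0.04, and 21 members (55.3%) lay above 0 against 59.5% of all tested genes. Region and cell type markers moved with this comparison. The 5 cortical projection neuron genes were all lower in the MS_W group (summed FPKM 44.7 to 136 against 323 to 376), the 5 striatal genes all higher (59.3 to 381 against 38.6 to 75.97), the 5 meningeal genes all higher (7.10 to 10.7 against 3.88 to 5.40) and the 6 hypothalamic genes all higher (2.24 to 97.1 against 1.083 to 1.80). Of 7 neuronal genes, 5 were lower (809 to 908 against 1029 to 1085). The 5 cerebellar genes were all higher (34.3 to 574 against 26.0 to 28.7), and 4 of 5 without MS_W95 and C_O72. The 12 oligodendrocyte genes were all higher too (567 to 895 against 447 to 686), but without C_O72 and MS_W95 only 6 of 12 were, and the summed FPKM of MS_W31 and MS_W75 was 567 and 598, within the range of the C_W group. The part of these markers in the differences of the members was not tested.

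**Figure D5:**
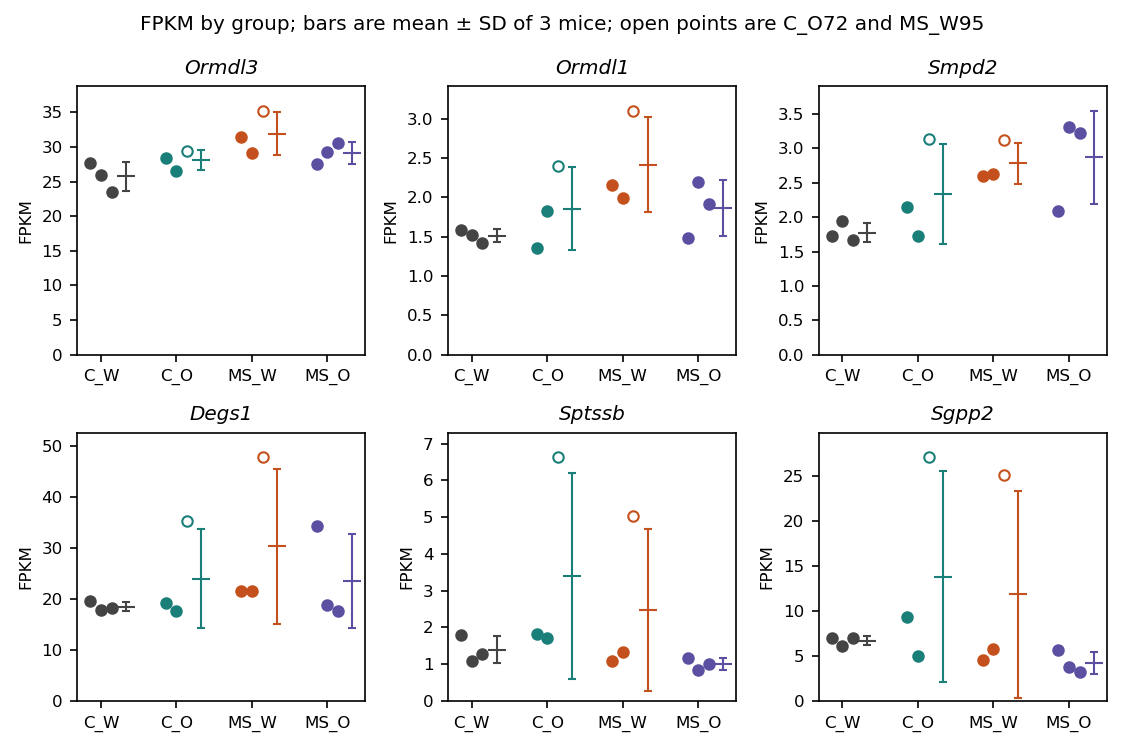
FPKM (y axes, from 0) of Ormdl3, Ormdl1, Smpd2, Degs1, Sptssb and Sgpp2 in the 4 groups (x axes), with 1 point per mouse, bars for the mean ± SD of 3 mice, and C_O72 and MS_W95 as open points. In the upper panels the 3 MS_W points lie above the 3 C_W points, and in the lower panels the high points are C_O72, MS_W95 and, for Degs1, MS_O13.

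The effect of CUMS in mice on krill oil was read from the MS_O and C_O groups. Of 38 members, 15 (39.5%) lay above 0 against 56.7% of all tested genes, with a median log2 fold change of -0.02 for the members and 0.03 for all tested genes. In the 10 libraries, 24 (63.2%) lay above 0 against 61.2%, with medians of 0.03 and 0.05. At an adjusted p of 0.05, 0 members passed by limma, edgeR or DESeq2, beside 1 gene (0.00467%) by limma and by edgeR and 0.83% of all tested genes by DESeq2. At an unadjusted p under 0.05 the counts were 0 by limma, 4 by edgeR and 4 by DESeq2, beside 8.88%, 8.54% and 10.6% of all tested genes in this order. Sgpp2 had the largest log2 fold change, -1.23 (SE 0.611, limma adjusted p = 0.592). Without C_O72 and MS_W95 it was -0.62. Only Sptssb was without overlap, lower in all 3 MS_O libraries (2.63% of the members, beside 3.29% of all tested genes lower and 12.2% in either direction), with a log2 fold change of -0.96 (SE 0.443, limma adjusted p = 0.567) and of -0.47 without C_O72 and MS_W95. In the 10 libraries without C_O72 and MS_W95, 3 members had an unadjusted limma p under 0.05, beside 13.6% of all tested genes, namely Sptssb and Sgpp2 with lower and Smpd2 with higher values in the MS_O group (log2 fold change of Smpd2 0.39). None of these passed the adjustment, with adjusted p = 0.335, 0.349 and 0.347 by limma for Sptssb, Sgpp2 and Smpd2. The oligodendrocyte genes were lower in the MS_O group for 11 of 12 (419 to 569 against 352 to 1616 summed FPKM). When C_O72 and MS_W95 were left out, they were lower for 3 of 12, with 590 and 352 in C_O15 and C_O30, and their part was not tested.

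Krill oil without CUMS was read from the C_O and C_W groups, the second of which is also the control of the CUMS comparison on water. At an adjusted p of 0.05, 0 members passed by limma, edgeR or DESeq2, and at an unadjusted p under 0.05 there were 0 by limma, 0 by edgeR and 2 by DESeq2, beside 3.55%, 4.47% and 5.87% of all tested genes in this order. Of all tested genes, 0 passed the adjusted threshold by limma and by edgeR and 0.255% by DESeq2. Sptssb had the largest log2 fold change, 0.71 (SE 0.443, limma adjusted p = 0.908), and 0.22 without C_O72 and MS_W95. The groups did not overlap for Sptlc1, higher in the C_O group at 8.25 ± 0.0536 against 7.89 ± 0.296 FPKM (SD, n = 3), and for Samd8, lower at 7.55 ± 1.76 against 8.89 ± 0.0825 FPKM, which was 5.26% of the members beside 9.42% of all tested genes. The median log2 fold change was 0.06 for the members and 0.00173 for all tested genes, with 24 of 38 (63.2%) above 0 against 50.4%. Over the 10 libraries the medians were both -0.01, with 16 of 38 (42.1%) above 0 against 45.0%. The oligodendrocyte genes were higher in the C_O group for 11 of 12 over all libraries and for 0 of 12 without C_O72 and MS_W95. Of the members, Gal3st1 alone had an unadjusted limma p under 0.05 in the 10 libraries, beside 4.06% of all tested genes, with a log2 fold change of -0.31 (SE 0.107, limma adjusted p = 1.00), while C_O30 had the lowest oligodendrocyte score of all libraries.

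Krill oil under CUMS was read from the MS_O and MS_W groups, each of which also enters a CUMS comparison above. The median log2 fold change was -0.10 for the members against -0.02 for all tested genes, with 12 of 38 (31.6%) above 0 against 46.3% of all tested genes. Over the 10 libraries the medians were -0.05 and -0.000505, with 16 of 38 (42.1%) above 0 against 49.8%. At an adjusted p of 0.05, 0 members passed by limma, edgeR or DESeq2, and at an unadjusted p under 0.05 there were 0 by limma, 1 by edgeR and 3 by DESeq2, beside 6.09%, 5.65% and 7.32% of all tested genes in this order. Of all tested genes, 0.00467% passed the adjusted threshold by limma and by edgeR and 0.39% by DESeq2. The groups did not overlap for 4 members, all lower in the MS_O group (10.5% of the members, beside 7.66% of all tested genes lower and 12.3% in either direction). These were Sgpp1 (log2 fold change -0.36, SE 0.170, limma adjusted p = 0.819), Asah1, Ugt8a and Gal3st1. The 12 oligodendrocyte genes were all lower in the MS_O group too, with a summed FPKM of 419 to 569 against 567 to 895, and 11 of 12 were lower without C_O72 and MS_W95, against 567 and 598. The 5 genes of cortical projection neurons were all higher in the MS_O group over all libraries (222 to 262 against 44.7 to 136) and 2 of 5 without C_O72 and MS_W95. The part of these markers was not tested. In the 10 libraries, Sgpp1 alone had an unadjusted limma p under 0.05 (beside 8.54% of all tested genes), and its log2 fold change was -0.20 (SE 0.0753, limma adjusted p = 0.501). Sgpp2 had the largest log2 fold change, -0.96 (SE 0.611, limma adjusted p = 0.837), which was -0.27 without C_O72 and MS_W95.

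The interaction asks whether the effect of CUMS differed between krill oil and water. At an adjusted p of 0.05, 0 members passed by limma, edgeR or DESeq2, and at an unadjusted p under 0.05 there were 0 by limma, 4 by edgeR and 5 by DESeq2, beside 7.23%, 8.1% and 10.1% of all tested genes in this order. Of all tested genes, 0 passed the adjusted threshold by limma and by edgeR and 0.684% by DESeq2. The median was -0.12 for the members and -0.02 for all tested genes on the log2 scale, with 13 of 38 (34.2%) above 0 against 47.4%. Over the 10 libraries the medians were -0.000358 and 0.01, with 19 of 38 (50.0%) above 0 against 52.7%. The largest value was that of Sgpp2, -1.61 (SE 0.863, limma adjusted p = 0.665). Without C_O72 and MS_W95 it was -0.30, and Smpd3 alone had an unadjusted limma p under 0.05 (log2 value -0.88, SE 0.314, limma adjusted p = 0.560), beside 7.51% of all tested genes. At criteria of an unadjusted p under 0.05 with a more than 2-fold ratio of mean FPKM, 0 of 38 members were counted in each of the 4 pairwise comparisons, beside 4.59%, 3.57%, 1.76% and 2.81% of all tested genes in the order given above. A more than 2-fold ratio alone was seen for 4 members (10.5%, beside 12.2% of all tested genes) between the MS_O and C_O groups, namely Sptssb, Sgpp2, Sgms2 and Asah2. It was seen for 3 members (7.89%, beside 10.5%) between the C_O and C_W groups, namely Sgms2, Sptssb and Sgpp2, for 2 members (5.26%, beside 11.3%) between the MS_O and MS_W groups, namely Sgpp2 and Sptssb, and for 0 members (beside 13.8%) between the MS_W and C_W groups. In each case C_O72 or MS_W95 was in the higher group. In the 10 libraries without them, 0 of 38 members passed an adjusted limma p of 0.05, beside 1.15%, 0.014%, 0.00467% and 0.271% of all tested genes in the 4 pairwise comparisons and 0.145% in the interaction.

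A list of 52 other genes of the pathway, such as receptors and carriers of sphingosine 1-phosphate, ganglioside enzymes and enzymes of fatty acid elongation, gave 49 genes in the table and 46 tested. None of the 46 passed an adjusted p of 0.05 by limma in any comparison. At an unadjusted p under 0.05, 0 were counted for CUMS on water, 3 for CUMS on krill oil, 1 for krill oil without CUMS, 1 for krill oil under CUMS and 1 for the interaction, all with lower values, beside 10.5%, 8.88%, 3.55%, 6.09% and 7.23% of all tested genes in either direction. For CUMS on water the smallest unadjusted p belonged to Hacd3, a dehydratase of fatty acid elongation (log2 fold change 0.25, limma adjusted p = 0.487), and Plpp3, a lipid phosphate phosphatase (0.26, limma adjusted p = 0.489). For CUMS on krill oil they were Spns2, an exporter of sphingosine 1-phosphate (-0.50, limma adjusted p = 0.543), and S1pr4, one of its receptors (-0.15, limma adjusted p = 0.554). For krill oil without CUMS they were Mfsd2b, the exporter of blood cells (-0.19, limma adjusted p = 0.908), and Hacd2 (0.19, limma adjusted p = 0.908). Under CUMS they were Hacd3 (-0.27, limma adjusted p = 0.815) and St3gal2, a ganglioside sialyltransferase (-0.26, limma adjusted p = 0.819), and in the interaction Hacd3 (-0.40) and Hacd1 (-0.41), both with a limma adjusted p = 0.665.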

How the data were processed

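Tissue that the labels name brain, from 12 mice, gave 1 poly(A) library each. The FPKM values were deposited by the authors, who filtered reads, aligned them with HISAT2 2.0.4 to mm10 and assembled and quantified transcripts with StringTie 1.3.4d, as the submitters' processing notes and the methods name the tools (cutadapt 1.9 is also listed), with a gene without an estimate at 0.0001. The estimated count values were deposited by the authors beside them, and the handling of strand in the counting is not given in the sources used here, so reads of overlapping genes could not be told apart. Coordinates are those of the table, and 31 of 39 members have the start and end of GENCODE M21, where 17 have exons that overlap another gene.

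The members and lists were chosen with earlier results of these data known. Differences were tested with limma 3.58.1 (R 4.3.3) on log2(FPKM + 1) in 1 linear model of the 4 groups with a mean-variance trend. Genes averaging 0.1 FPKM or more, 21393 in all, entered it, and p-values were adjusted over all of them after Benjamini and Hochberg. As alternatives, pseudocounts of 0.1 and 0.01, other filters (none, or 1 FPKM), quantile normalization, median centring, fits of only the groups compared, a linear model with depth, edgeR 4.0.16 and DESeq2 1.42.0 on rounded estimated counts, the oligodendrocyte score as covariate and fits with libraries left out were run. Correlations used 100000 two-sided permutations for each gene. The fits were tested on simulated data. By rule, values in every library were given for members with an unadjusted limma p under 0.05 or the largest fold change in a comparison, the most abundant member of a role and members with a gap of over 1 between libraries. Ugt8a and Gal3st1 were added after their values were seen. Of other pathway genes, the 2 with the smallest p in each comparison were named. Each mouse is 1 sample. In the fits, a p-value sets the difference between groups against the spread between mice within groups. In the correlations, libraries were permuted without regard to group.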

Additional observations from a re-analysis of the deposited data

How the results depend on the processing

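No member passed an adjusted p of 0.05 in any of the 5 comparisons under any of the 24 other settings, and the smallest adjusted p of a member was 0.171. Counts of members at an unadjusted p under 0.05 moved with the setting, and the cause was not tested. Beside the main fit, the share of all tested genes was counted only by edgeR, by DESeq2 and without C_O72 and MS_W95. Counts under the other settings lack that share and are not read as a result about the members. For CUMS on water the count was 3, 1 with depth as a covariate, and 0 to 5 with 1 library left out (0 without C_W70 or MS_W95, 5 without C_O72). For CUMS on krill oil it was 0, 1 with a pseudocount of 0.1 or 0.01, with quantile normalization or with median centring, 2 with depth as a covariate, 4 by edgeR and by DESeq2, 3 without C_O72 and MS_W95, and 0 to 6 with 1 library left out (6 without C_O30). For krill oil without CUMS it was 0, 2 by DESeq2, 1 with the oligodendrocyte score as a covariate or without C_O72 and MS_W95, and 0 to 2 with 1 library left out. For krill oil under CUMS it was 0, 1 with depth as a covariate, by edgeR or without C_O72 and MS_W95, 3 by DESeq2, and 0 to 1 with 1 library left out. For the interaction it was 0, 1 with a pseudocount of 0.1 or 0.01, without a filter, with median centring or without C_O72 and MS_W95, 4 by edgeR, 5 by DESeq2, and 0 to 5 with 1 library left out (5 without C_O30). Over all 12 libraries, 9 members (beside 8.05% of all tested genes) passed the adjusted threshold for correlation with the oligodendrocyte score, against 0 over 10. The log2 fold changes of Ormdl3, Ormdl1, Smpd2 and Degs1 for CUMS on water, of Sptssb for krill oil without CUMS and of Sgpp2 for the other comparisons kept their direction under the settings run for them, with adjusted p between 0.184 and 1.00. No scaling moved the median of all genes by over 0.1, but its sign changed. With median centring it went from 0.06 to -0.03 for CUMS on water and from 0.03 to -0.05 for CUMS on krill oil. With quantile normalization it was 0.01 and -0.01 in this order. The medians and shares above 0 given for the members were not counted under these scalings. No paired analysis was possible because the mouse numbers are not shared between groups. With 3 mice a group, the median SE of a member's log2 fold change was 0.170.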

Other observations

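Without C_O72 and MS_W95, St8sia5 and Smpdl3b of the other pathway genes had a smaller adjusted limma p for CUMS on water than any member. In that fit, 1.15% of all tested genes passed an adjusted limma p of 0.05, and 15.4% had an unadjusted p under 0.05. The MS_W group there was MS_W31 and MS_W75 alone, and the values are not read as a result about the pathway. St8sia5, a sialyltransferase of gangliosides, had a log2 fold change of -0.59 (SE 0.126, limma adjusted p = 0.0768) for CUMS on water and of 0.33 (SE 0.126, limma adjusted p = 0.513) for krill oil under CUMS. Over all 12 libraries these values were -0.10 (SE 0.322, limma adjusted p = 0.914) and -0.15 (SE 0.322, limma adjusted p = 0.934), and the FPKM of St8sia5 was 25.2 in MS_W95 against 8.75 and 8.34 in MS_W31 and MS_W75. Smpdl3b, a phosphodiesterase related to acid sphingomyelinase, had a log2 fold change of 1.03 (SE 0.243, limma adjusted p = 0.104) for CUMS on water, and of 0.55 (SE 0.371, limma adjusted p = 0.595) over all 12. Among the 46 other pathway genes tested, 16 (34.8%) were higher in both C_O72 and MS_W95 than in the other 10 libraries, beside 16.3% of all tested genes. They include Fa2h, which hydroxylates the fatty acids of myelin galactolipids, Elovl1, which makes very long chain acyl-CoA, and S1pr5, the sphingosine 1-phosphate receptor of oligodendrocytes. B4galnt1, a ganglioside synthase, and Smpdl3b (4.35%) were lower in both, beside 11.7%. These shares, too, were not counted at a matched level of expression.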
